A study of Macaca mulatta with 24 samples.

Results

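Branched-chain amino acid breakdown was described here through 10 genes chosen by name, from the first transamination of leucine, isoleucine and valine to the late carboxylation steps. Their Ensembl identifiers were looked up in a gene name table, and 9 of the 10 were found among the 32386 genes of the count table. The tenth, BCKDHA, had no identifier in the tables used and was not analysed here. All 9 genes passed the filter on low counts, as did 15207 genes in all.

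The libraries came from omental white adipose tissue (WAT), the visceral fat of the abdominal apron, of 24 female rhesus macaques in 4 groups of 6. Controls (C) carried cholesterol implants and ate monkey chow. T animals carried implants releasing testosterone and ate chow, WSD animals carried cholesterol implants and ate a high-fat western-style diet, and T + WSD animals had the testosterone implants and that diet. Treatment ran for 3 years, each animal gave 1 biopsy and 1 library, and the study selected animals whose fat mass and insulin resembled their group. The labels give an age of 4 years for every animal, and the methods give an older one.

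Leucine, isoleucine and valine share their first catabolic steps. An aminotransferase (BCAT1 in the cytosol, BCAT2 in mitochondria) passes the amino group on and leaves a branched-chain keto acid, which the mitochondrial branched-chain keto acid dehydrogenase complex then decarboxylates irreversibly. The kinase BCKDK switches this complex off by phosphorylation and the phosphatase PPM1K switches it on again, after which each amino acid follows its own branch. Adipose tissue is a known site of this breakdown, and adipocytes use the carbon for lipid synthesis.

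Libraries held 6899185 to 28270776 counts (median 20630512.5). In 8 libraries, 2 in each group, a single gene (ENSMMUG00000038258) took 9.92 to 54.7% of the counts, against 0.879 to 2.51% in the other 16, and the 8 are called the library batch here. The name stands only for that share of counts, since the sample labels name no batch. All 10 adipocyte markers were detected in every library, with medians of 916 CPM (counts per 1000000 counts) or more for ADIPOQ in each group, although the group medians of FABP4, singled out after its values were seen, were only 1.67 to 2.67 CPM. Whether this identifier is the adipocyte FABP4 gene model was not tested, and it stayed in the marker list. The first control replicate stood apart, with 2370 CPM summed over the adipocyte markers (11400 to 18400 in the other controls) and 39800 CPM over 9 mesothelial markers (2930 to 10100 in the others). WSD replicate 20 held the highest level of 5 of the 9 genes. Values without these libraries are given where a result rests on them.

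Levels are CPM scaled by the trimmed mean of M-values (TMM). A gene was called where edgeR's quasi-likelihood test gave a Benjamini-Hochberg adjusted p under 0.05 over all 15207 genes and a fold change over 1.5. The 3 comparisons with controls share the same 6 control animals, so their values stand side by side and are not independent. In whole biopsies, fewer cells of a type and less RNA per cell cannot be told apart. Levels were not compared between genes, since no gene lengths were used.

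In T + WSD animals 2 of the 9 genes fell against controls, the phosphatase PPM1K and the mitochondrial aminotransferase BCAT2, and none rose. Among all genes 10% were called in this comparison (DESeq2 also called 2 of the 9, and 10.9% of all genes), so the count of 2 among 9 is not read as a feature of the list. Unadjusted p was under 0.05 for the same 2 genes, against 32.1% of all genes. The fold change was negative for 8 of the 9, against 54.9% of all genes. The median log2 fold change was -0.33 against -0.04 over all genes tested. For none of the 9 did all 6 T + WSD animals lie below every control, which held for 4.12% of all genes.

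In WSD animals 0 of the 9 genes were called by edgeR, as were 0% of all genes, and unadjusted p was under 0.05 for PPM1K and BCKDK, against 18.5% of all genes. DESeq2 called 1 of the 9, PPM1K, beside 1.58% of all genes. In T animals 0 of 9 were called by either tool, beside 0% of all genes by edgeR and 0.0466% by DESeq2, and only PPM1K had an unadjusted p under 0.05, against 8.63% of all genes. The median log2 fold change over the 9 genes was 0.20 in WSD animals and 0.15 in T animals.

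**Figure D1:**
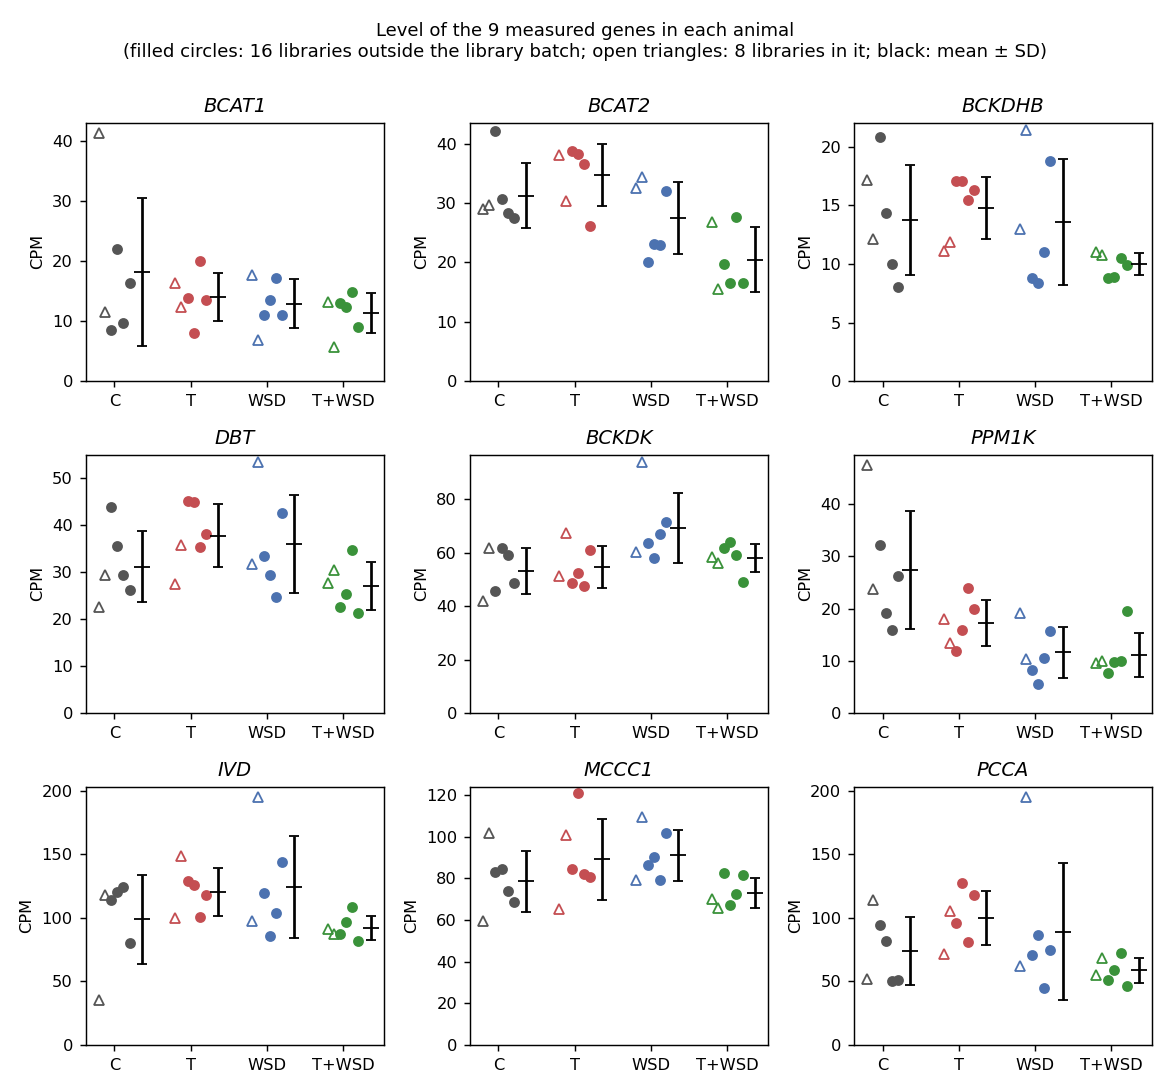
Level of each of the 9 genes in every animal, in TMM-scaled CPM on linear axes that start at 0. Circles are the 16 libraries outside the library batch, open triangles the 8 inside it, and black bars the mean and SD of 6 animals. PPM1K was between 7.59 and 19.6 CPM in the T + WSD animals and between 15.8 and 47.4 CPM in the controls.

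BCAT1 (ENSMMUG00000012223), the cytosolic aminotransferase, was measured at 8.46, 14 and 41.3 CPM in controls (lowest, median and highest animal). It lay at 8.06, 13.7 and 20.1 CPM in T animals, 6.91, 12.3 and 17.7 CPM in WSD animals and 5.65, 12.7 and 14.8 CPM in T + WSD animals. The groups overlapped throughout, and the single high value belonged to control replicate 1, the library with few adipocyte and many mesothelial transcripts. The log2 fold change was -0.67 in T + WSD animals (SE 0.33, edgeR adjusted p = 0.161), -0.50 in WSD and -0.38 in T. Without that control the T + WSD value was -0.23 (edgeR adjusted p = 0.639), the WSD value -0.08 (edgeR adjusted p = 0.938) and the T value 0.04 (edgeR adjusted p = 0.997).

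BCAT2 (ENSMMUG00000010079), the mitochondrial aminotransferase and the main form in adipose tissue, stood at 27.4, 29.4 and 42.2 CPM in controls and at 26.1, 37.4 and 38.8 CPM in T animals. WSD animals had 20.2, 27.6 and 34.4 CPM, and T + WSD animals 15.6, 18.1 and 27.7 CPM. In T + WSD, 5 of 6 animals were below every control, and the highest of them, replicate 11, exceeded only the lowest control. Mean levels were 31.3 ± 5.49 CPM in controls and 20.5 ± 5.44 CPM in T + WSD (SD, n = 6 each). The log2 fold change was -0.61 (SE 0.17, edgeR adjusted p = 0.0169).

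The fall of BCAT2 lay close to the fold-change threshold. Its call was lost without control replicate 3, the highest control (-0.50, edgeR adjusted p = 0.0516), and without T + WSD replicates 8, 10 or 12, where the log2 fold changes of -0.53 to -0.55 fell short of the threshold. With the batch left out, the 16 remaining libraries gave a fitted value of -0.66 (edgeR adjusted p = 0.0954). The difference of mean log2 levels was -0.69 in those 16 libraries and -0.52 in the 8 of the batch.

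Against T animals, BCAT2 in T + WSD was lower as well, with a log2 fold change of -0.76 (SE 0.17, edgeR adjusted p = 0.0151). All 6 T + WSD animals were below the median T animal. It was the only one of the 9 genes called in that comparison, where 3.77% of all genes were called. Against WSD animals the log2 fold change was -0.42 (SE 0.17, edgeR adjusted p = 0.159). Diet averaged over both hormone states gave -0.47 (SE 0.12, edgeR adjusted p = 0.0167), under the fold-change threshold.

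Of the dehydrogenase complex, 2 subunits were measured. BCKDHB (ENSMMUG00000004829), the beta subunit of the decarboxylase, stood at 8.05, 13.3 and 20.8 CPM in controls and at 11.1, 15.9 and 17.1 CPM in T animals. WSD animals spread from 8.4 to 21.4 CPM around a median of 12, whereas the 6 T + WSD animals were packed between 8.82 and 11 CPM. The T + WSD animals thus lay within the range of controls, and all 6 lay below every T animal, a separation that 3.1% of all genes showed. The edgeR log2 fold change against T was -0.58 (SE 0.23, adjusted p = 0.118), and against controls -0.47 (SE 0.23, adjusted p = 0.161), neither of them called. By mean log2 levels the difference from T was -0.78 in the 16 libraries outside the batch and -0.08 in the 8 inside it. The value against controls was -0.31 without control replicate 3 (edgeR adjusted p = 0.392).

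DBT (ENSMMUG00000007706), the acyltransferase that forms the core of the complex, was at 22.5, 29.4 and 43.8 CPM in controls, 27.4, 36.8 and 45.1 in T, 24.7, 32.6 and 53.4 in WSD and 21.3, 26.6 and 34.7 in T + WSD. All groups overlapped, the T animals sat highest by their median and the T + WSD animals lowest. Its log2 fold change in T + WSD was -0.21 against controls (SE 0.18, edgeR adjusted p = 0.459), -0.08 without control replicate 3 (edgeR adjusted p = 0.806), and -0.49 against T (SE 0.18, edgeR adjusted p = 0.0988).

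For the kinase and the phosphatase of the complex the differences from controls had opposite signs on the western-style diet, and only the phosphatase was called. BCKDK (ENSMMUG00000016032), which phosphorylates and inactivates the complex, was at 41.9, 53.9 and 61.6 CPM in controls, 47.4, 51.9 and 67.4 in T, 58.0, 65.4 and 94.0 in WSD and 48.9, 58.7 and 64.1 in T + WSD. In WSD, 4 of 6 animals were above every control, and 5 of 6 T + WSD animals lay within the control range. The log2 fold change in WSD was 0.38 (SE 0.12, edgeR adjusted p = 0.144), and 0.27 without WSD replicate 20 (edgeR adjusted p = 0.321). In T + WSD it was 0.13 (SE 0.12, edgeR adjusted p = 0.495), so BCKDK was not called anywhere.

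PPM1K (ENSMMUG00000004561), which dephosphorylates and activates the complex, stood at 15.8, 25.0 and 47.4 CPM in controls and at 11.9, 17 and 24 CPM in T animals. WSD animals had 5.64, 10.4 and 19.1 CPM, and T + WSD animals 7.59, 9.85 and 19.6 CPM. On the diet, 5 of 6 WSD and 5 of 6 T + WSD animals were below every control, the exceptions being WSD replicate 19 and T + WSD replicate 12. In T, 3 of 6 animals were below every control and all 6 were below the control median.

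PPM1K averaged 27.4 ± 11.3 CPM in controls and 17.2 ± 4.44 CPM in T animals (SD, n = 6 each). Diet-fed animals averaged 11.6 ± 4.97 CPM without testosterone and 11.1 ± 4.25 CPM with it. The log2 fold change was -1.30 in T + WSD (SE 0.29, edgeR adjusted p = 0.00696), the lowest of the 9 genes. In WSD it was nearly as large, -1.26 (SE 0.29), but with 0 genes called in that comparison its edgeR adjusted p was 0.131. DESeq2 put the same WSD difference past the threshold (-1.25, adjusted p = 0.00943), as did edgeR without WSD replicate 19 (-1.44, adjusted p = 0.0380). T + WSD and WSD differed by -0.04 (SE 0.29, edgeR adjusted p = 0.954), and T against controls gave -0.67 (SE 0.29, edgeR adjusted p = 0.547), or -0.44 without control replicate 1 (edgeR adjusted p = 0.867).

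Averaged over both hormone states, PPM1K was lower on the diet, with a log2 fold change of -0.94 (SE 0.21, edgeR adjusted p = 0.0106). It was the only called gene of the 9 in this average, where 5.3% of all genes were called. The library batch and control replicate 1 bear on its size. Without that control, which held the highest PPM1K level, the T + WSD value was -1.05 (edgeR adjusted p = 0.0253). In the 16 libraries outside the batch the fitted T + WSD value was -0.97 and not called (edgeR adjusted p = 0.138), while the diet average of -0.90 was still called (edgeR adjusted p = 0.0447). By mean log2 levels the T + WSD difference was -1.02 in those 16 libraries and -1.78 in the 8 of the batch.

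**Figure D2:**
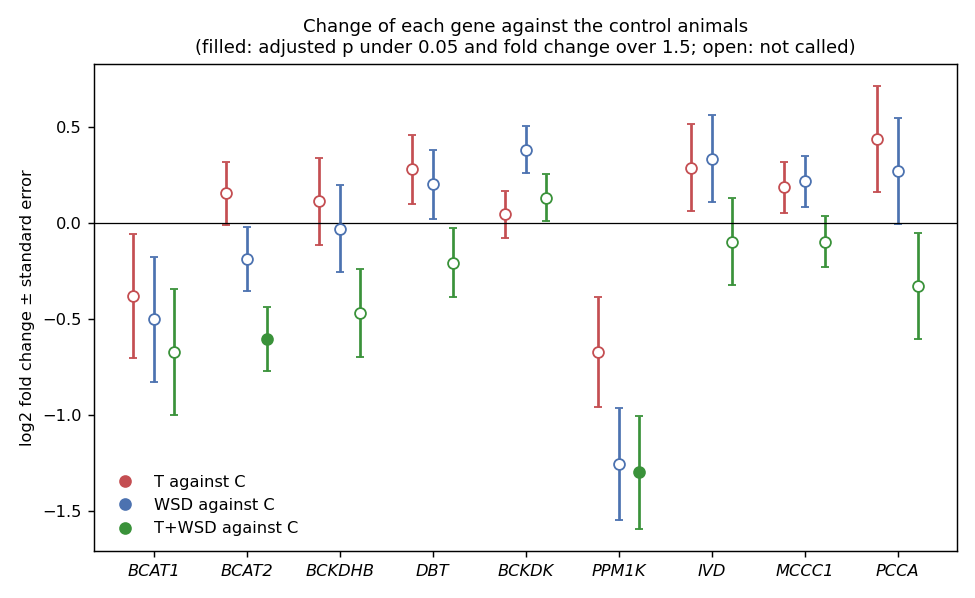
Log2 fold change of each gene against the control animals from the edgeR fit, with its standard error, with T in red, WSD in blue and the combination in green. Filled points are called genes, which are BCAT2 at -0.61 and PPM1K at -1.30, both in T + WSD, and every other value is open.

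Because the kinase and the phosphatase act on the same complex, their counts were set against each other within each library, a ratio that needs no scaling between libraries. BCKDK counts per PPM1K count ran from 0.884 to 3.72 in controls with a median of 2.22, and from 1.98 to 5.03 in T with a median of 3.18. They ran from 3.15 to 10.3 in WSD with a median of 7.04, and from 2.5 to 8.11 in T + WSD with a median of 6.00. The ratio exceeded the highest control in 5 of 6 WSD, 5 of 6 T + WSD and 2 of 6 T animals. It was formed after both genes' levels had been seen, so it is a description without a test, and transcript ratios say nothing of the enzymes' activities.

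**Figure D3:**
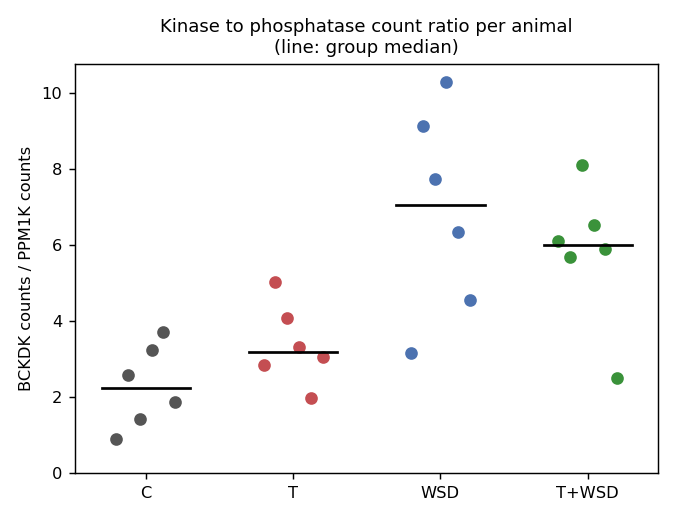
BCKDK counts divided by PPM1K counts in each of the 24 animals, on a linear axis from 0, with a line at each group's median. The medians were 2.22 for controls, 3.18 for T, 7.04 for WSD and 6.00 for T + WSD animals.

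Past the complex the leucine branch was represented by IVD and MCCC1, and the end of the isoleucine and valine branches by PCCA. IVD (ENSMMUG00000014462), isovaleryl-CoA dehydrogenase, was at 35.2, 116 and 125 CPM in controls, 99.9, 122 and 149 in T, 86.0, 112 and 195 in WSD and 81.7, 89.3 and 109 in T + WSD. The lowest value of all was that of control replicate 1, and all 6 T + WSD animals were below the control median. Its log2 fold change in T + WSD was -0.10 (SE 0.23, edgeR adjusted p = 0.809), and -0.26 without that control (edgeR adjusted p = 0.347).

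MCCC1 (ENSMMUG00000010553), the biotin-carrying subunit of methylcrotonyl-CoA carboxylase, was at 59.6, 78.6 and 102 CPM in controls, 65.5, 83.4 and 121 in T, 79.1, 88.5 and 109 in WSD and 65.6, 71.2 and 82.4 in T + WSD. The 6 WSD animals were all above the control median and 4 of the 6 T + WSD animals were below it, within overlapping ranges. The log2 fold changes against controls were 0.21 in WSD and -0.10 in T + WSD (SE 0.13 each), with edgeR adjusted p = 0.39 and 0.657.

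PCCA (ENSMMUG00000004493), the biotin-carrying subunit of propionyl-CoA carboxylase, was at 50.6, 66.6 and 114 CPM in controls, 71.7, 101 and 127 in T, 45.1, 72.8 and 195 in WSD and 46.3, 57.0 and 72.2 in T + WSD. T animals were all above the control median, and 5 of 6 T + WSD animals were below every T animal. The log2 fold change of T + WSD against T was -0.77 (SE 0.28, edgeR adjusted p = 0.0893). In WSD against controls it was 0.27 (SE 0.28, edgeR adjusted p = 0.626), and -0.12 without WSD replicate 20, so its sign rested on 1 library.

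Animals on the diet with and without testosterone were then compared, and the 2 x 2 layout was tested as a whole. All 9 genes were lower in T + WSD than in WSD, as were 54.6% of all genes. Their log2 fold changes ran from -0.60 for PCCA to -0.04 for PPM1K. Several of the 9 varied together among animals, so like signs are not separate observations. None was called, against 0.815% of all genes, and unadjusted p was under 0.05 for 4 (BCAT2, DBT, MCCC1 and PCCA), against 20% of all genes. Without WSD replicate 20 all 9 were still lower, but 0 of the 9 had an unadjusted p under 0.05 and PCCA was at -0.21 (edgeR adjusted p = 0.648). PPM1K ranged from -0.30 to 0.14 with each animal left out. Against T, 8 of 9 were lower in T + WSD, beside 53.8% of all genes. Unadjusted p was under 0.05 for 6, against 25.9% of all genes. Over both diets, testosterone gave log2 fold changes from -0.36 to -0.06, and 56.7% of all genes were negative. Of the 9, 0 were called beside 0% of all genes, and 0 had an unadjusted p under 0.05 beside 16.5% of all genes. For the diet average, unadjusted p was under 0.05 for 3 genes (BCAT2, BCKDK and PPM1K), against 29.1% of all genes.

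The interaction term asks whether the testosterone difference changed with diet. It was negative for 7 of the 9 genes, against 52.2% of all genes. These 7 ran from -1.04 for PCCA (SE 0.39) to -0.29 for BCKDK (SE 0.17). The median over the 9 was -0.55 against -0.02 over all genes. The term was positive for PPM1K (0.63, SE 0.41) and BCAT1 (0.21, SE 0.46). Single libraries bear on the size of several of these values. Without WSD replicate 20, PCCA was at -0.65 (edgeR adjusted p = 0.418) and BCKDK at -0.19 (edgeR adjusted p = 0.714). PPM1K was at 0.37 without T + WSD replicate 12 (edgeR adjusted p = 0.770), and BCAT1 ranged from -0.19 to 0.36 with each animal left out, the lowest without control replicate 1. No member passed the adjusted p under 0.1 used for this term, which 0.809% of all genes passed, and the smallest adjusted p was 0.23 for DBT (edgeR). DESeq2 also passed 0 of the 9, beside 2.77% of all genes. Unadjusted p was under 0.05 for 5 of 9 (BCAT2, DBT, IVD, MCCC1 and PCCA), against 13.5% of all genes. WSD replicate 20 held the highest DBT, IVD and PCCA of all animals, and the count without it is not given here. With each animal left out these 5 stayed negative. The highest values were -0.5 for BCAT2, -0.54 for DBT, -0.53 for IVD, -0.39 for MCCC1 and -0.65 for PCCA. For these 5 the T median lay above the control median while the T + WSD median lay below the WSD median.

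**Figure D4:**
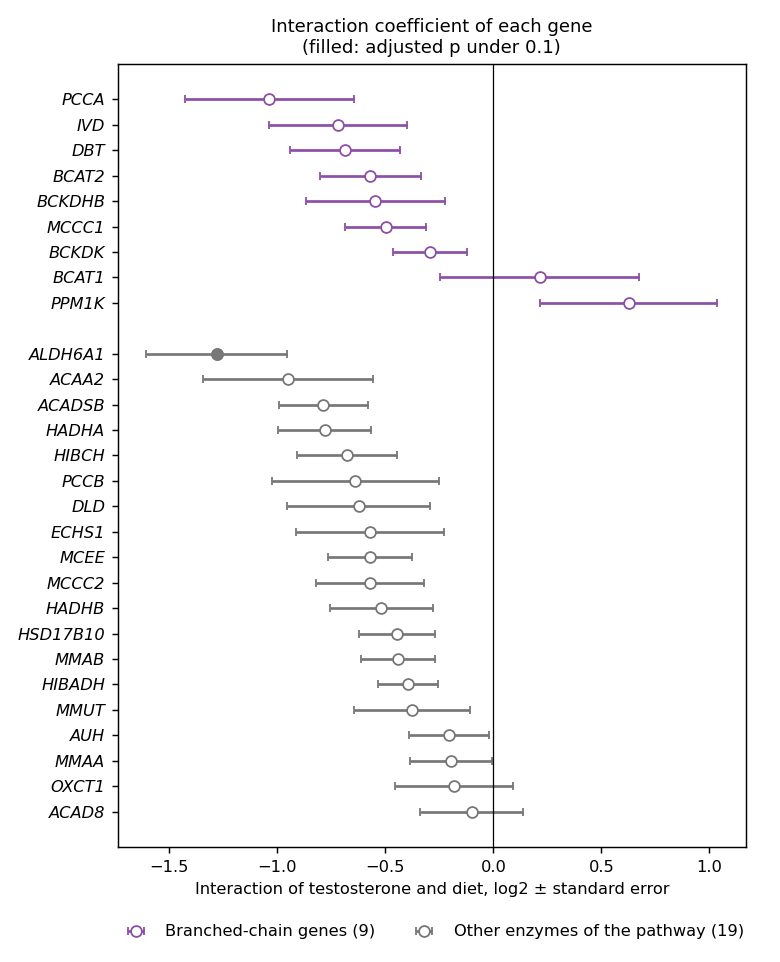
Interaction coefficient of testosterone and diet (log2, with standard error) for the 9 genes and for 19 further enzymes of the pathway, each sorted by value. All values are from edgeR. All 19 further enzymes were negative, as were 52.2% of all genes. ALDH6A1 at -1.28, the filled point, was the only 1 of the 28 with an edgeR adjusted p under 0.1.

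The other enzymes of the pathway were taken from a list, of which 19 of 20 had an identifier. In T + WSD against controls 1 of the 19 was called by edgeR, MCCC2, the partner subunit of MCCC1. Among all genes 10% were called in this comparison, so this count is not read as a feature of the list. MCCC2 was at 44.0 ± 8.56 CPM in controls and 28.6 ± 2.68 in T + WSD (SD, n = 6 each). The log2 fold change was -0.62 (SE 0.18, edgeR adjusted p = 0.0211). MMAB, which makes the cobalamin cofactor of methylmalonyl-CoA mutase, had an adjusted p of 0.0199 in edgeR with a log2 fold change of -0.42 (SE 0.12), under the fold-change threshold. The median over the 19 was -0.16 in T + WSD and 0.25 in WSD. In WSD 18 of 19 were positive, while 52.4% of all genes were negative. There 0 of the 19 were called by edgeR or DESeq2 (7 with unadjusted p under 0.05 in edgeR).

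The interaction was negative for all 19, against 52.2% of all genes, with a median of -0.57. For 11 of the 19 unadjusted p was under 0.05, against 13.5% of all genes. ALDH6A1, methylmalonate-semialdehyde dehydrogenase of the valine branch, was the 1 that passed in edgeR (-1.28, SE 0.33, edgeR adjusted p = 0.0972), beside 0.809% of all genes. DESeq2 passed 1 gene of the valine branch and 2 of the isoleucine branch, beside 2.77% of all genes. It averaged 108 ± 23.2 CPM in controls and 157 ± 53.2 CPM in T animals, and on the diet 125 ± 46.8 CPM without and 75.2 ± 17 CPM with testosterone (SD, n = 6 each).

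Negative interaction values were not limited to this pathway. Among lists of other mitochondrial genes the interaction was negative for 15 of 15 of the TCA cycle (median -0.74, 0 with adjusted p under 0.1), 10 of 10 respiratory chain subunits (median -0.95, 1 passing, NDUFV1) and 10 of 11 of fatty acid oxidation (median -0.73, 1 passing, ECI1). It was negative for 12 of 12 genes of the pyruvate and oxoglutarate dehydrogenase complexes with their kinases and phosphatases (median -0.66, 0 passing). These counts of passing genes are edgeR's. DESeq2 passed 3 genes of the TCA cycle, 4 respiratory chain subunits, 1 gene of fatty acid oxidation and 1 of the dehydrogenase list. Among all genes DESeq2 passed 2.77%. No test set the branched-chain genes apart from these lists.

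Of 6 branched-chain amino acid transporters 4 were matched, and 0 were called by edgeR or DESeq2 in any comparison with controls. SLC7A8, a neutral amino acid exchanger, had the largest change in T + WSD (0.69, SE 0.30, edgeR adjusted p = 0.111). Of 4 transcription factors tied to the pathway (KLF15, PPARG, MLXIPL and PPARGC1A) 0 were called by either tool. PPARG, the main regulator of adipocyte differentiation, had a log2 fold change of 0.33 in T + WSD (SE 0.28, edgeR adjusted p = 0.446). PPARGC1A, a coactivator of mitochondrial genes, had -0.38 (SE 0.33, edgeR adjusted p = 0.456).

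Markers of other cell types moved with the same groups. In T + WSD 8 of 9 mesothelial markers fell (median log2 fold change -2.66), and their summed level was 281 to 3230 CPM, against 2930 to 39800 CPM in controls. It was 804 to 6300 CPM in WSD and 2930 to 17900 CPM in T. The adipocyte markers summed to 16600 to 25400 CPM in T + WSD, 12400 to 27300 in WSD, 10600 to 26000 in T and 2370 to 18400 in controls, with 1 of 10 called (LEP, up). Endothelial markers rose for 5 of 8, those of smooth muscle and pericytes for 3 of 7, of macrophages for 1 of 8 (ITGAX) and of fibroblasts and progenitors for 1 of 8 (DPT), and 0 of 6 T, NK and B cell markers were called. Among all genes 10% were called in T + WSD against controls.

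With the mean adipocyte marker level as a covariate, the T + WSD value was -0.72 for PPM1K (edgeR adjusted p = 0.153) and -0.60 for BCAT2 (edgeR adjusted p = 0.138). With FABP4 left out of that mean, a setting added after the data were seen, the values were -0.74 and -0.60 (edgeR adjusted p = 0.138 and 0.129). With the mesothelial level as a covariate it was -0.60 for PPM1K and -0.31 for BCAT2 (edgeR adjusted p = 1 for each). The summed mesothelial level hardly overlapped between C and T + WSD, so level and group cannot be told apart in this fit. The adipocyte sums overlapped more but were shifted too, from 2370 to 18400 CPM in C and from 16600 to 25400 in T + WSD. These overlaps are of summed CPM, whereas the covariates were means of log2 CPM, whose ranges are not given here. The adipocyte mean also includes LEP, which was called up in T + WSD. Level and group are thus only partly separated in the adipocyte fits. The part of these markers in either fall was not tested.

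Finally, the 9 genes were compared animal by animal after each group's mean log2 CPM was taken away, over 36 pairs and 24 animals, with permutation p values adjusted by Benjamini-Hochberg over the pairs. Of the 36 Pearson correlations, 24 were positive and 12 negative. For 15 pairs both Pearson's r and Spearman's rho had an adjusted permutation p under 0.05, and 11 of these were positive. All 15 kept their sign without the 2 animals farthest out and within the 16 libraries outside the batch, which is a weak mark. In the 16 libraries r ran from -0.53 to -0.25 for the negative pairs and from 0.30 to 0.78 for the positive ones. No p value was computed in them.

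The closest pair by r was DBT with PCCA (r = 0.77, rho = 0.74, adjusted permutation p = 0.00054 and 0.00162, r = 0.67 without the 2 farthest animals and 0.78 in the 16 libraries). BCKDK with IVD gave r = 0.74 and rho = 0.70 (adjusted permutation p = 0.00054 and 0.00324, r = 0.68 without the 2 farthest animals and 0.55 in the 16 libraries). The highest rho was that of DBT with IVD (r = 0.69, rho = 0.77, adjusted permutation p = 0.00156 and 0.00072, r = 0.62 without the 2 farthest and 0.74 in the 16 libraries). DBT also varied with BCKDHB, its partner in the complex (r = 0.66, rho = 0.65, adjusted permutation p = 0.00338 and 0.00783, r = 0.58 without the 2 farthest and 0.72 in the 16 libraries). These genes thus varied together over the pooled animals once group means were taken away, and no group was correlated alone.

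The 4 negative pairs among the 15 were those of BCAT1 with IVD, MCCC1, DBT and PCCA, whereas its pairs with BCAT2 and BCKDHB did not pass (r = -0.002 and -0.16, adjusted permutation p = 0.994 and 0.513). The widest was with IVD (r = -0.68, rho = -0.54, adjusted permutation p = 0.00252 and 0.0306). It was -0.58 without the 2 farthest animals and -0.28 in the 16 libraries outside the batch. Of the 8 pairs of PPM1K, 0 passed on both measures. Its strongest was with BCKDHB (r = 0.45, rho = 0.37, adjusted permutation p = 0.0568 and 0.135, r = 0.56 without the 2 farthest animals and 0.50 in the 16 libraries). With BCKDK it gave r = -0.39 and rho = -0.39 (adjusted permutation p = 0.106 and 0.119, r = -0.41 without the 2 farthest animals and -0.26 in the 16 libraries).

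**Figure D5:**
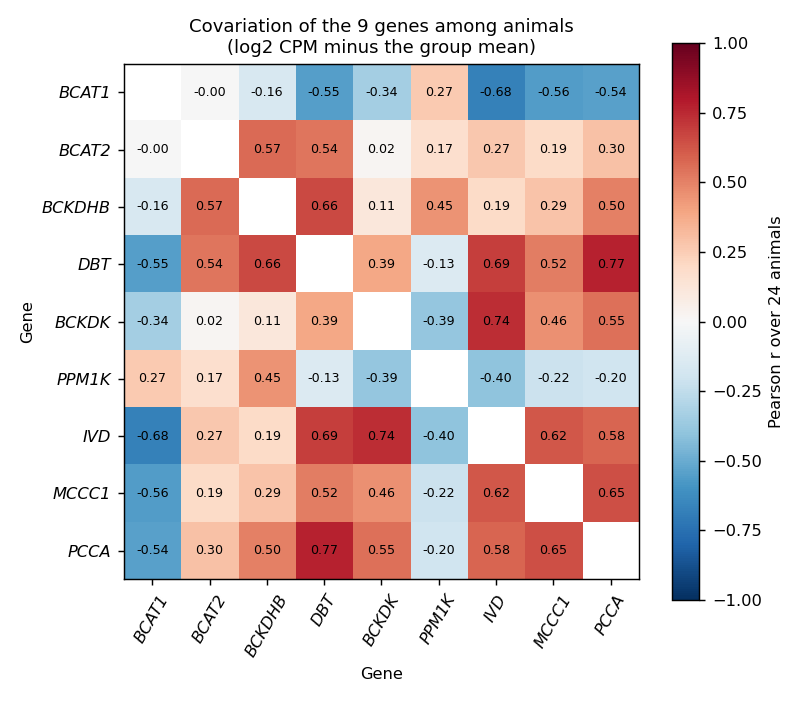
Pearson's r between each pair of the 9 genes over 24 animals, from log2 CPM minus the group mean, coloured from blue at -1 to red at 1. BCAT1 is blue against DBT, IVD, MCCC1 and PCCA, and the highest cell is DBT with PCCA at 0.77.

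The same deviations were set against the mean levels of the adipocyte and mesothelial markers, 18 relations chosen after the data were seen and adjusted over the 18. Here the 2 farthest animals were picked by the marker level alone, not by the gene. IVD followed the adipocyte markers (r = 0.86, rho = 0.75, adjusted permutation p = 0.00018 and 0.00198), with r = 0.67 without the 2 farthest animals and 0.44 in the 16 libraries. BCKDK followed them less closely (r = 0.63, rho = 0.58, adjusted permutation p = 0.00355 and 0.0181), with 0.58 without the 2 farthest animals and 0.43 in the 16 libraries. PPM1K ran against them (r = -0.67, rho = -0.69, adjusted permutation p = 0.00099 and 0.00234), with -0.67 without the 2 farthest animals and -0.69 in the 16 libraries. BCAT1 followed the mesothelial markers (r = 0.65, rho = 0.66, adjusted permutation p = 0.0024 and 0.00294), with 0.68 without the 2 farthest animals and 0.39 in the 16 libraries. The other 14 relations did not pass on both measures. With FABP4 left out of the adipocyte mean, r was 0.87 for IVD, 0.62 for BCKDK and -0.66 for PPM1K.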

How the data were processed

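Total RNA of 24 omental WAT biopsies was depleted of ribosomal RNA by the authors and sequenced as single reads. Per the submitters' processing notes, reads passed FastQC 0.11.5, Trimmomatic 0.36 and STAR 2.5.2b, and the study's methods name the rheMac8 assembly. The authors deposited 1 table of raw counts per gene, which holds no normalization. The counting tool, its strand setting and the authors' filter on low counts are not given in the sources used here, so reads shared with antisense or overlapping genes cannot be told apart.

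Groups came from the sample labels. The genes and lists were chosen with earlier results of these data known. Symbols were matched through the gene name table, and 3 list genes (MMAB, KRT8 and CLDN5) through the paper's supplementary tables. BCKDHA, ACAT1, SLC25A44, SLC7A5, ACADL, LRRN4, C1QA, C1QB, CD3D and CD2 had no match. A further 2 list genes are not reported here and stand in no list count. All 10 genes were to be named, and from each further list up to 4: those called in T + WSD, then in WSD, otherwise the 2 with the smallest p in T + WSD. Genes named outside this rule are marked, or passed the interaction threshold.

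All 4 groups entered 1 fit of edgeR 4.0.16 (R 4.3.3) on the counts as deposited, with TMM scaling, filterByExpr (minimum count 10), robust quasi-likelihood dispersion and no covariate, in 8 contrasts. A call took an adjusted p below 0.05 together with a 1.5-fold change, or an adjusted p under 0.1 for the interaction. Printed standard errors are the log2 fold change divided by the root of its F value. The code was tested on simulated data. DESeq2 1.42.0, other scalings and filters, the library batch, marker covariates and leaving out each animal were alternatives. Shares of all genes called by DESeq2 cover the genes to which it gave an adjusted p. The batch was the 8 libraries with over 5% of counts from 1 gene, known from an earlier look at these counts. Correlations used log2 CPM (prior count 2) minus the group mean and 1e+05 permutations. Of 45 pairs intended, 36 remained without BCKDHA. Totals of 6899185 to 28270776 counts gave each of the 9 genes between 20 and 3769 counts per library. The 20 counts were those of BCAT1 in the shallowest library. Each library was a separate animal, and p-values measure the spread between animals. Bisulfite data, tissue morphology and serum values were not analysed here, and no sequence or coordinate was used.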

Additional observations from a re-analysis of the deposited data

Results flagged for a closer look

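Each of the 9 genes was screened in each of the 4 groups, 36 sets of 6 animals, for a highest or lowest animal far from the rest. The screen set the gap to the next animal against the range of the set (Dixon's Q). Its cutoff marks about 1 set in 20 if values are normally distributed, which was not tested for these CPM. Of the 36 sets 4 were marked. The sets share animals, so this count is not weighed against that rate. BCAT2 in control replicate 3 was at 42.2 CPM, where the other controls were at 27.4 to 30.7 CPM, and the call of BCAT2 in T + WSD was lost without this animal. PPM1K in T + WSD replicate 12 was at 19.6 CPM, where the other T + WSD animals were at 7.59 to 10.02 CPM, and its T + WSD value was -1.55 without it. BCKDK in WSD replicate 20 was at 94.0 CPM and PCCA in the same animal at 195.0 CPM, against at most 71.4 and 86.2 CPM in the other WSD animals. This library belongs to the library batch and has 9806932 counts. Its adipocyte markers summed to 27000 CPM, at the high end of the WSD group. WSD replicate 21 was at 27300 CPM and the remaining WSD animals at 12400 to 19900 CPM. The part of any of these in the 2 high values was not tested.

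By edgeR's interaction term at an adjusted p under 0.1, 3 genes of the further lists and 0 of the 9 passed, beside 0.809% of all genes. These were ALDH6A1 of the valine branch (-1.28, 1 of 5 genes), ECI1 of fatty acid oxidation (-1.18, 1 of 11) and the respiratory chain subunit NDUFV1 (-1.13, 1 of 10), all on the log2 scale. The number depends on the tool. DESeq2 passed 0 of the 9, but 1 of these 5, 1 of these 11 and 4 of these 10, beside 2.77% of all genes. It also passed 2 of 5 genes of the isoleucine branch, 3 of 15 of the TCA cycle and 1 of 12 of the pyruvate and oxoglutarate dehydrogenase list.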

How the results depend on the processing

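The 2 calls in T + WSD against controls became 0 in the 16 libraries outside the batch, with the adipocyte covariate, with that covariate without FABP4 (added after the data were seen) and with the mesothelial covariate. They became 1 with upper-quartile scaling and with a fold change over 2, and 1 to 2 with each animal left out. For WSD against controls the 0 calls became 1 with DESeq2, and 0 to 1 with each animal left out. For T + WSD against T the 1 call became 3 with the adipocyte covariate, 4 with that covariate without FABP4, 2 when only the groups compared were fitted, 0 with a fold change over 2, 0 with the mesothelial covariate and 1 to 2 with each animal left out. The added gene was PCCA, with the adipocyte covariate also IVD, and without FABP4 in it also DBT. For the diet average the 1 call became 0 with a fold change over 2 and with any of the 3 covariates, and 2 with no fold-change threshold. The cause of these shifts was not tested, except that a stricter fold-change threshold leaves fewer calls by construction.

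The following log2 values changed sign, and none was called before or after. With the mesothelial covariate BCAT1 became 0.56 (T + WSD against C), 0.62 (against T), 0.47 (against WSD), 0.09 (WSD against C), 0.35 (diet average) and 0.21 (testosterone average), BCKDHB 0.08 (WSD against C) and PPM1K 0.40 (T + WSD against WSD). With the adipocyte covariate BCAT1 became 0.02 (T against C), 0.01 (testosterone average) and -0.03 (interaction), BCKDHB 0.07, IVD -0.03 and PCCA -0.01 (each WSD against C), BCKDK -0.06 (T against C), -0.07 (T + WSD against C) and -0.01 (T + WSD against T), and PPM1K 0.08 (T + WSD against WSD). With that covariate without FABP4 BCAT1 became 0.01 (WSD against C), 0.04 (T against C), 0.01 (testosterone average) and -0.07 (interaction), BCKDHB 0.06, IVD -0.05 and PCCA -0.03 (each WSD against C), BCKDK -0.06 (T against C and T + WSD against C) and -0.0 (T + WSD against T), and PPM1K 0.06 (T + WSD against WSD). In the 16 libraries BCAT1 became -0.06 (interaction), BCKDK -0.03 (T against C), DBT -0.04 (WSD against C), PPM1K 0.24 (T + WSD against WSD), and BCKDHB 0.02, MCCC1 0.01 and PCCA 0.17 (testosterone average). Upper-quartile scaling gave PPM1K 0.02 (T + WSD against WSD).

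With each animal left out, values that crossed 0 ranged from -0.53 to 0.04 (BCAT1, T against C), -0.19 to 0.36 (BCAT1, interaction), -0.01 to 0.27 (BCKDHB, T against C), -0.20 to 0.13 (BCKDHB, WSD against C), -0.02 to 0.10 (BCKDK, T against C), -0.15 to 0.01 (MCCC1, T + WSD against C), -0.12 to 0.44 (PCCA, WSD against C) and -0.30 to 0.14 (PPM1K, T + WSD against WSD). For the diet average they were -0.11 to 0.02 (IVD) and -0.07 to 0.02 (MCCC1), and for the testosterone average -0.11 to 0.01 (DBT), -0.15 to 0.01 (IVD) and -0.15 to 0.11 (PCCA). No paired analysis was possible because no replicate number occurs in more than 1 group. Precision was limited by 6 animals a group and by the shallow libraries of the batch.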
